A study of Mus musculus with 6 samples.

Results

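The genes of the mitochondrial respiratory chain and ATP synthase were followed between early and late culture of mouse ciCPCs. They were chosen by symbol: protein-coding genes named as NADH dehydrogenase (complex I), succinate dehydrogenase (complex II), ubiquinol-cytochrome c reductase (complex III), cytochrome c oxidase (complex IV) and ATP synthase (complex V) subunits, with cytochrome c (Cycs) and cytochrome c1 (Cyc1). The rule found 96 genes among 53801 counted, 83 in the nucleus and 13 on mitochondrial DNA. RNA was sequenced from 3 libraries at passage 3 and 3 at passage 20. In both groups the cells were wild type, of a mixed C57BL/6 and 129J/SvE background, were picked as colonies on day 14 of cardiac reprogramming, and were grown in basal medium with BMP4, Activin A, CHIR99021 and SU5402. The labels call them cardiac progenitors. They do not say whether replicates are separate cultures, nor name a colony or a batch, so the p-values reflect spread among these libraries alone, and that spread may be technical.

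The respiratory chain sits in the inner mitochondrial membrane. Complexes I and II pass electrons to ubiquinone, complex III passes them on through cytochrome c, complex IV gives them to oxygen, and complexes I, III and IV pump the protons that drive ATP synthase. Complex II is built from nuclear genes alone, while the other complexes join nuclear subunits to subunits made inside the organelle. Mitochondrial DNA is read as long transcripts from both strands that are then cut into ribosomal, transfer and messenger RNAs.

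Each library held between 11387738 and 17721788 counts in genes. Of the labelled cell type's 9 markers, 5 were higher and 4 lower at passage 20. Their summed level went from 763 to 787 CPM down to 643 to 713 CPM (CPM, counts scaled to library size with TMM factors). Pdgfra was the largest part of that fall (means of 328 and 134 CPM), with Isl1 next (63.2 and 7.45 CPM). Gata4, Mef2c and Hand2 rose most in CPM, from means of 94.0, 39.1 and 151 to 160, 105 and 179. The 8 cardiomyocyte markers summed to 12.7 to 14.0 and 10.4 to 12.1 CPM, with Myl2 at 0 counts, the 3 immune markers stayed between 3.98 and 6.24 CPM with Ptprc at 0, and the 6 fibroblast markers, of which 5 were higher and Thy1 was lower, summed to 9808 to 10383 and 19316 to 23216 CPM, with Col1a1 the largest part of the rise (means of 4353 and 12539.6 CPM). Passage 20 replicate 3 stood apart: its counts differed from those of the other passage 20 libraries by a chi-square per degree of freedom of 8.78 and 10.7, against 1.77 to 2.67 between the other replicates. The part of this library and of the fibroblast markers in the results below was not tested, other than by leaving the library out. In bulk RNA, fewer cells of a type and less RNA per cell cannot be told apart.

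Respiratory genes of mitochondrial DNA were called lower or not at all, and those of the nucleus were called in both directions. Of the 13 mitochondrial genes, 7 were lower at passage 20 and 0 were higher by the quasi-likelihood test of edgeR, adjusted after Benjamini and Hochberg (0 higher at an unadjusted p under 0.05 and 0 by DESeq2), and their median log2 fold change was -0.28. Of the 83 nuclear genes, 80 passed the low-count filter, 34 were higher and 19 lower, and their median was 0.08. Over all 15143 genes tested, 74.3% were called, 37% higher and 37.3% lower, with a median of -0.01, so a call on its own does not set a respiratory gene apart from other genes. Groups did not overlap for 64 nuclear and 8 mitochondrial genes, against 77.5% of all genes (38.3% higher and 39.3% lower at passage 20). The sizes were small in the nucleus: Ndufa4l2 and Cox6a2 were the 2 nuclear genes past a 2-fold change, while 5 mitochondrial genes fell at least 2-fold.

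**Figure D1:**
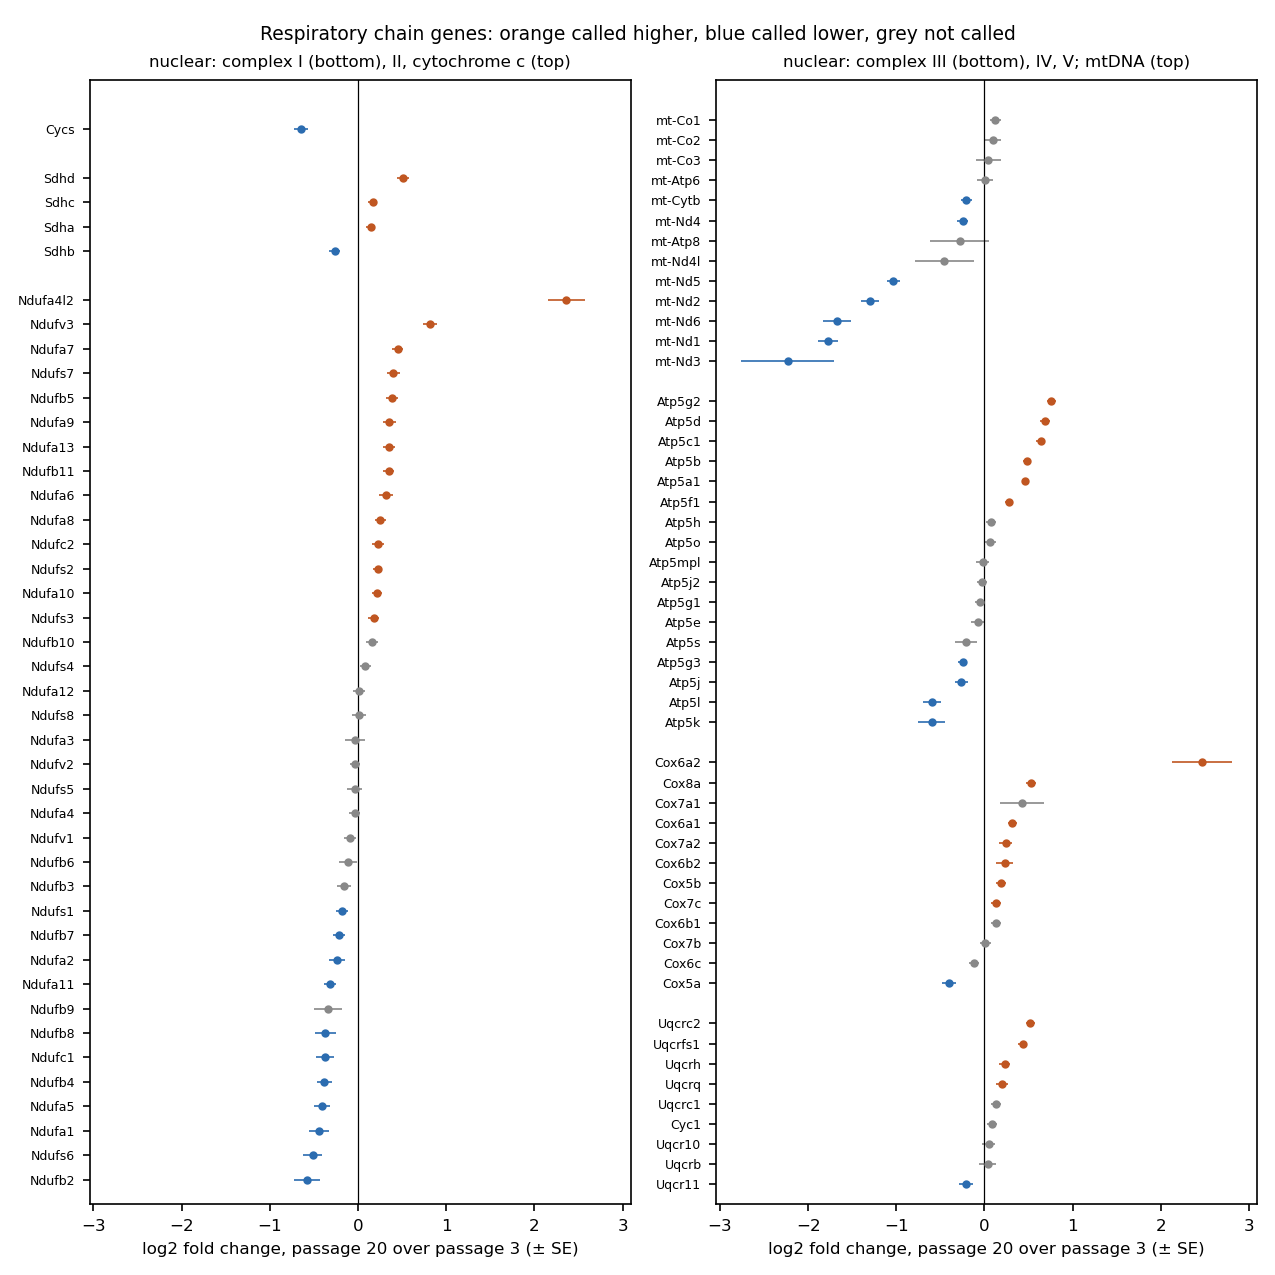
Log2 fold change of passage 20 over passage 3 (x axis, bars are standard errors) for the 93 respiratory genes tested, grouped by complex. Of the nuclear genes 34 are called higher and 19 lower (11 and 49 with library sizes only, 22 and 29 with GC and length offsets), and 5 of the genes of mitochondrial DNA lie below -1.

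The 2 counts of nuclear genes depended on the scaling. With library sizes only, which moved the median of all genes to -0.34, 11 nuclear genes were higher and 49 lower (background 23.3% and 54.6%), and the nuclear median was 0.09 above that of all genes. With offsets for GC content and length, 22 were higher and 29 lower. The median of all genes was -0.0024 in that setting, and the share of all genes called there was not computed. Across the 80 nuclear genes tested, which share the same 6 libraries, the log2 fold change had a Spearman correlation of 0.32 with GC content, -0.05 with exon length and 0.53 with the mean level per kilobase, given as a description. Across 15134 tested genes of all kinds the correlation was 0.03 with GC content and -0.05 with exon length.

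On mitochondrial DNA, 6 of the 7 complex I genes fell, 5 of them at least 2-fold and mt-Nd4 by less, and mt-Nd4l did not pass the test. The complex III gene fell by about as little as mt-Nd4, and the 5 genes of complexes IV and V did not pass. mt-Nd1, a membrane subunit of the proton-pumping arm of complex I (mitochondrial DNA, 2751 to 3707, + strand), stood at 1275, 1274 and 1133 CPM at passage 3 and at 307, 344 and 423 CPM at passage 20. Every passage 20 library lay below every passage 3 library, and replicate 3 was the highest of the 3 late ones. The fall was 3.43-fold (log2 fold change -1.78 ± 0.11, SE, n = 3 per passage; edgeR adjusted p = 1.22e-06). mt-Nd2, another membrane subunit, stood at 1183, 1158 and 1074 CPM and then at 406, 431 and 551 CPM, a 2.46-fold fall. mt-Nd5, the far end of the membrane arm, went from 1459.7, 1394 and 1315 CPM to 614, 660.5 and 763 CPM, a 2.05-fold fall. In both genes the passages did not overlap and replicate 3 was again the highest late library. mt-Nd6, the one protein gene read from the other strand of the molecule, went from 241, 232 and 217 CPM to 57.9, 64.9 and 92.8 CPM, a 3.18-fold fall (log2 -1.67 ± 0.16). It overlaps mt-Nd5 tail to tail, and with the strand setting not given in the sources used here, reads of the overlap cannot be told apart. mt-Nd4, next to mt-Nd5 on the map, fell by 0.25 on the log2 scale, from 761, 730.3 and 672 CPM to 574, 631 and 618 CPM (edgeR adjusted p = 0.00304).

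mt-Cytb, the cytochrome b core of complex III, went from 1623, 1531 and 1422 CPM to 1226, 1373 and 1366 CPM, without overlap between passages (log2 -0.21 ± 0.06; edgeR adjusted p = 0.0125). mt-Co1, the catalytic subunit of complex IV, had the highest counted level per kilobase of exon among the respiratory genes. It stood at 2955, 3039 and 2658 CPM and then at 3143, 3274 and 2995 CPM. Its passages overlapped and it did not pass (log2 0.12 ± 0.06; edgeR adjusted p = 0.0958). The call of mt-Co1 depended on the setting. It was called higher without passage 20 replicate 3 (log2 0.14; edgeR adjusted p = 0.0078) and lower with library sizes only (log2 -0.21; edgeR adjusted p = 0.0032). The remaining genes of complexes IV and V did not pass: mt-Co2 and mt-Co3, partners of mt-Co1 in the catalytic core, had log2 fold changes of 0.10 ± 0.09 and 0.05 ± 0.14, and the membrane subunits of ATP synthase mt-Atp6 and mt-Atp8 had 0.01 ± 0.09 and -0.28 ± 0.33. With library sizes only mt-Atp6 was called lower as well (log2 -0.32). In that setting 9 mitochondrial genes were lower in place of 7, with 54.6% of all genes lower.

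**Figure D2:**
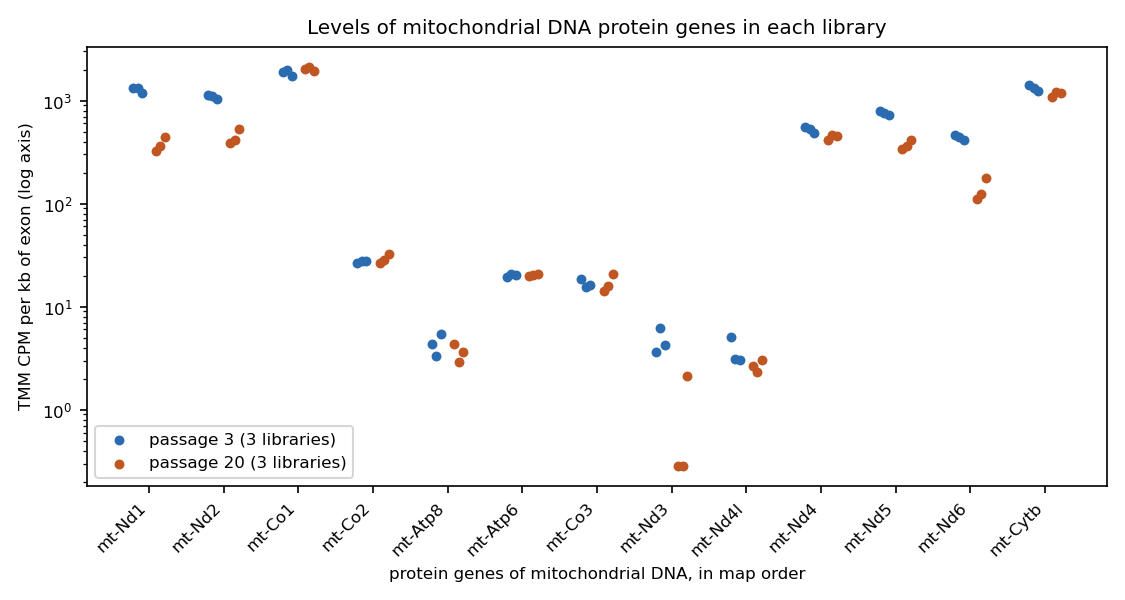
TMM CPM per kilobase of exon (log axis) of the 13 protein genes of mitochondrial DNA in map order, 1 point per library. mt-Nd1, mt-Nd2, mt-Nd5 and mt-Nd6 lie lower in all 3 passage 20 libraries, mt-Co1 overlaps between passages, and the stretch from mt-Co2 to mt-Nd4l lies far below its neighbours in all 6.

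Levels per kilobase of exon show how the composition of the counted mitochondrial RNA differed. At passage 3, mt-Nd1, mt-Cytb and mt-Co1 stood at 1283 ± 85.2, 1333 ± 87.9 and 1867 ± 129.6 CPM per kb (SD, n = 3). At passage 20 they stood at 374 ± 62.0, 1155 ± 72.2 and 2031 ± 90.4 CPM per kb. The ratio of mt-Co1 to mt-Nd1 was 1.43, 1.48 and 1.45 in the early libraries and 6.35, 5.90 and 4.39 in the late ones. That of mt-Cytb to mt-Nd1 went from 1.04 ± 0.0307 to 3.13 ± 0.370. mt-Co1 made up 30.9% to 32.3% of the counts of mitochondrial protein genes at passage 3 and 43.6% to 49.3% at passage 20. All 13 genes together took 1.08%, 1.05% and 0.953% of counts at passage 3 and 0.556%, 0.603% and 0.628% at passage 20, while the 83 nuclear genes took 0.695% to 0.714% and 0.672% to 0.719%. The mitochondrial share was lower in every late library and the nuclear share overlapped between passages. These are sums over chosen genes and were given no test. The genes from mt-Co2 to mt-Nd4l had few counts, and most of them share nearly all their sequence with annotated nuclear genes. The mitochondrial sum and the mt-Co1 share therefore reflect mainly the other mitochondrial genes, and not all mitochondrial messenger RNA.

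The other counted RNAs of mitochondrial DNA did not move as one. The large ribosomal RNA mt-Rnr2, which lies just before mt-Nd1 on the map, went from 404, 516 and 461 CPM to 208, 221 and 138 CPM (log2 -1.29 ± 0.19; edgeR adjusted p = 0.000845). The small ribosomal RNA mt-Rnr1 fell by 0.51 on the log2 scale. The transfer RNA gene mt-Tp, beyond mt-Cytb, stood at 43.6 ± 5.14 and 43.8 ± 4.87 CPM (SD, n = 3).

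The 6 genes from mt-Co2 to mt-Nd4l had few counts, and nearly all the sequence of 5 of them also lies in annotated nuclear genes. For mt-Atp8 no such annotated gene was found. Of the 50-base words of mt-Co2, 100% occur in another annotated gene, and the shares were 99.86% for mt-Co3, 99.53% for mt-Atp6, 98.79% for mt-Nd4l, 97.99% for mt-Nd3, 62.2% for mt-Nd4 and 51.1% for mt-Co1. For mt-Nd1, mt-Nd6, mt-Cytb and mt-Atp8 the share was 0. Copies without annotation were not searched, so a share of 0 does not show that a gene has no nuclear copy. mt-Atp8 lies between mt-Co2 and mt-Atp6, which both have annotated copies on chromosome 1. Except for mt-Co1, most of these shared words lie in annotated copies on chromosome 1 (24611535 to 24616197 from the first to the last copy, GRCm38). Of all words of mt-Co1, 28.7% occur in a copy in that block and 27.5% in a copy on chromosome 2, and some occur in both. The first 150 bases of 2 genes and their copies are shown because they show how alike gene and copy are. They are from GENCODE M21, with the one differing base in capitals:
mt-Nd3: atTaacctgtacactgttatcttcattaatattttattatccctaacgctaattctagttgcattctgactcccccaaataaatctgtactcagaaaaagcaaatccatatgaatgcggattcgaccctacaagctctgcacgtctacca
Gm28438: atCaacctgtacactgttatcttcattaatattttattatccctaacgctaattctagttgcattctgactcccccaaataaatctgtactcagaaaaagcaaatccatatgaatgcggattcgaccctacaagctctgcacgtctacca
mt-Co2: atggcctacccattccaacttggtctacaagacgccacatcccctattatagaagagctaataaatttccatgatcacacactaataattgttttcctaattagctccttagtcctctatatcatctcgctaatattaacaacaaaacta
Gm28661: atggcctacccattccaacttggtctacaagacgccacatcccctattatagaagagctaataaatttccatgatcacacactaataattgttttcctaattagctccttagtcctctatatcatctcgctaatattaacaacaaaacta
mt-Nd3 (mitochondrial DNA, 9459 to 9608 of the stretch shown, + strand) and Gm28438 (chromosome 1, 24612970 to 24613119, - strand) differ over 345 compared bases by 1 substitution, T3C, counted from 1 at the first base of mt-Nd3 with the mitochondrial base first. mt-Co2 (7013 to 7162, + strand) and Gm28661 (chromosome 1, 24615416 to 24615565, - strand) differ at 0 of 681 compared bases. A read inside mt-Co2, or inside mt-Nd3 away from that base, matches gene and copy alike.

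Counts were found on both sides of such pairs. mt-Nd3, a small membrane subunit of complex I, stood at 1.27, 2.16 and 1.47 CPM and then at 0.0990, 0.0994 and 0.740 CPM, which are 20, 35 and 29 counts and then 1, 1 and 9 counts. Its log2 fold change was -2.23 ± 0.53 (edgeR adjusted p = 0.003), and -3.93 without passage 20 replicate 3. The copy Gm28438 went from 10.5, 13.4 and 10.8 CPM to 1.68, 2.68 and 4.11 CPM, which is -2.00 ± 0.23 on the log2 scale. Gm28661 stood at 9.97 ± 0.584 and 10.0 ± 1.18 CPM and mt-Co2 at 18.7 ± 0.487 and 20.0 ± 2.07 CPM (SD, n = 3), and neither passed the test. mt-Nd4l, a membrane subunit of complex I, had a log2 fold change of -0.45 ± 0.33 and its copy Gm10222 had -1.24 ± 0.37. With the copies' counts added to their mitochondrial genes, an alternative chosen after seeing the data, 8 mitochondrial genes were lower in place of 7, since mt-Nd4l then passed (log2 -0.91; edgeR adjusted p = 0.0127). How the reads of a pair were shared out was not tested.

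Complex I has 37 nuclear members, of which 14 were higher, 11 lower and 12 not called, with a median of -0.03 (2 higher and 24 lower with library sizes only, and 9 and 17 with GC and length offsets). Its 7 catalytic core subunits were split as well, 3 higher, 1 lower and 3 not called. So were the 30 other members with a complex I name, 11, 10 and 9, which include Ndufa4 and Ndufa4l2. Ndufv3, an accessory subunit of the NADH-oxidising module, went from 54.5, 62.1 and 66.1 CPM to 105, 102 and 114 CPM. All late libraries were above all early ones (log2 0.81 ± 0.08; edgeR adjusted p = 2.84e-06). Ndufa7, another accessory subunit, rose 1.37-fold but was not called with library sizes only (log2 0.12). Ndufs6, a zinc-binding accessory subunit, went from 21.6, 18.5 and 21.6 CPM to 12.8, 15.0 and 15.3 CPM (log2 -0.52 ± 0.11). Ndufb4 and Ndufa11, accessory subunits of the membrane arm, fell by 0.38 and 0.32. Exons of Ndufs6 and Ndufa11 overlap Mrpl36 and Vmac on the opposite strand, so their counts are uncertain.

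Ndufa4l2, the low-oxygen form of Ndufa4, had the largest nuclear change in this complex by name. Ndufa4 itself carries a complex I name but is known as a subunit of complex IV. Ndufa4l2 (chromosome 10, 127514967 to 127517154, + strand) stood at 40.7, 64.4 and 75.0 CPM and then at 328, 301 and 300.4 CPM, without overlap, a 5.14-fold rise (log2 2.36 ± 0.21; edgeR adjusted p = 8.08e-05). Its exons overlap Shmt2 on the opposite strand. Ndufa4 stood at 83.1 ± 2.61 and 80.9 ± 4.36 CPM (SD, n = 3) and did not pass.

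Complex II oxidises succinate and links the citric acid cycle to the chain. Of its 4 genes, 3 were higher and 1 was lower (1 and 3 with library sizes only). Sdhd, a membrane anchor, rose from 96.2, 89.4 and 92.0 CPM to 139.9, 137 and 119 CPM (log2 0.51 ± 0.07; edgeR adjusted p = 4.42e-05). Sdhb, the iron-sulphur subunit, fell from 75.1, 73.5 and 77.3 CPM to 60.2, 62.9 and 65.0 CPM (log2 -0.26 ± 0.06; edgeR adjusted p = 0.00196). Both genes separated the passages without overlap. Sdhc, the other anchor, and Sdha, the flavoprotein, had log2 fold changes of 0.17 ± 0.05 and 0.14 ± 0.05. With passage 3 replicate 1 or 2 left out, or by DESeq2, neither passed and 1 gene was higher in place of 3. Sdhc also did not pass without passage 3 replicate 3.

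Complex III had 9 nuclear members, 4 higher, 1 lower and 4 not called, with a median of 0.13 (-0.20 with library sizes only, where 1 was higher and 5 lower). Uqcrc2, a core subunit, went from 103, 101 and 104 CPM to 149, 147 and 145 CPM (log2 0.52 ± 0.05; edgeR adjusted p = 2.48e-06). Uqcrfs1, the Rieske iron-sulphur protein, went from 89.6, 90.9 and 94.5 CPM to 124, 124 and 123 CPM, a 1.35-fold rise that was not called with library sizes only (log2 0.10). Both were separated widely from the early libraries, with the 3 late ones close together. Uqcrh, the hinge protein that helps hold cytochrome c1, rose by 0.23 but was -0.10 with library sizes only and did not pass with GC and length offsets (log2 0.07). Uqcr11, a small accessory subunit, was the 1 called lower (log2 -0.21 ± 0.08; edgeR adjusted p = 0.0351) and did not pass without passage 3 replicate 1 or 3 or passage 20 replicate 1 or 2 (0 lower). Cyc1, Uqcrc1, Uqcr10 and Uqcrb did not pass, with log2 fold changes of 0.08, 0.13, 0.05 and 0.04. Uqcrc1 was called higher without passage 20 replicate 1 (0.17). With library sizes only Cyc1, Uqcrc1, Uqcr10 and Uqcrb were all called lower. With GC and length offsets Uqcr10 and Uqcrb were called lower and Uqcrc1 higher.

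Cytochrome c, the small carrier between complexes III and IV that is also known for its release in apoptosis, went the other way. Cycs (chromosome 6, 50562563 to 50566538, - strand) stood at 54.9, 52.5 and 49.5 CPM and then at 30.1, 33.6 and 36.3 CPM, without overlap (log2 -0.65 ± 0.08; edgeR adjusted p = 2.73e-05). Retrocopies and other annotated genes share 26.2% of its 50-base words.

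Complex IV had 15 nuclear members, of which 12 passed the filter, 7 higher, 1 lower and 4 not called, with a median of 0.21. The median was -0.12 with library sizes only and -0.045 with GC and length offsets, where 1 gene was higher and 2 lower. The count of 7 also moved with single libraries: 3 were higher without passage 3 replicate 2, and 4 without passage 3 replicate 3 or passage 20 replicate 2. Cox8a, a membrane subunit and the most abundant nuclear gene of the complex per kilobase of exon, stood at 119, 120.4 and 117 CPM and then at 173, 180.5 and 160.0 CPM (log2 0.53 ± 0.06; edgeR adjusted p = 7.5e-06), with 0.06 and no call under GC and length offsets. Cox6a1, the widespread form of a regulatory subunit, rose by 0.32 and had -0.068 with those offsets and -0.0145 with library sizes only. Cox5a, a subunit on the matrix side, went from 43.3, 40.3 and 42.0 CPM to 28.5, 33.3 and 33.4 CPM (log2 -0.40 ± 0.08). Cox6b1, Cox6c, Cox7a1 and Cox7b did not pass. Cox6b1 was called higher without passage 20 replicate 3 (log2 0.13). It was called lower with library sizes only (log2 -0.20) and with GC and length offsets (log2 -0.25). Cox6c and Cox7b were called lower with library sizes only (log2 -0.45 and -0.32). Cox7b2, Cox8b and Cox8c did not reach the filter, with 0, 2 and 0 counts in all 6 libraries.

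Several subunits of the chain come in alternative forms. Ndufa4l2 made up 37.5%, 50.2% and 53.2% of its set with Ndufa4 per kilobase of exon at passage 3, and 84.4%, 81.7% and 82.3% at passage 20. Cox4i2, the low-oxygen form of the subunit that starts complex IV assembly and outside the naming rule, went from 23.0% to 30.2% of its set with Cox4i1 to 50.4% to 55.1%. Cox6a2, the heart and skeletal muscle form, stayed a small part, at 0.426 ± 0.201% and 1.95 ± 0.471% (SD, n = 3), with 3, 9 and 10 counts and then 30, 20 and 27 counts (log2 2.47 ± 0.34; edgeR adjusted p = 5.96e-05). Of the genes that make the ATP synthase c ring, Atp5g2 rose from 43.7 ± 0.573% to 60.3 ± 1.28% of the set, while Atp5g3 went from 45.6 ± 0.436% to 31.3 ± 1.26% and Atp5g1 from 10.7 ± 0.169% to 8.38 ± 0.218%. None of these 6 shares overlapped between passages. The c ring shares depend on the exon length, which is 4912 bases for Atp5g1, 1675 for Atp5g2 and 2181 for Atp5g3. Counts alone gave mean shares of 32.6% and 48.0% for Atp5g2, 44.2% and 32.5% for Atp5g3 and 23.3% and 19.5% for Atp5g1. The testis form Cox6b2 (12.4 ± 0.647% and 13.1 ± 1.44%) and the muscle form Cox7a1 (4.63 ± 0.425% and 5.24 ± 1.27%) overlapped. An exact two-sided permutation test gave p = 0.1 for each of the first 6 shares and p = 0.5 for these last ones (0.133 and 0.5 adjusted over 8), and 0.1 is the smallest p that 3 against 3 libraries allow.

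**Figure D3:**
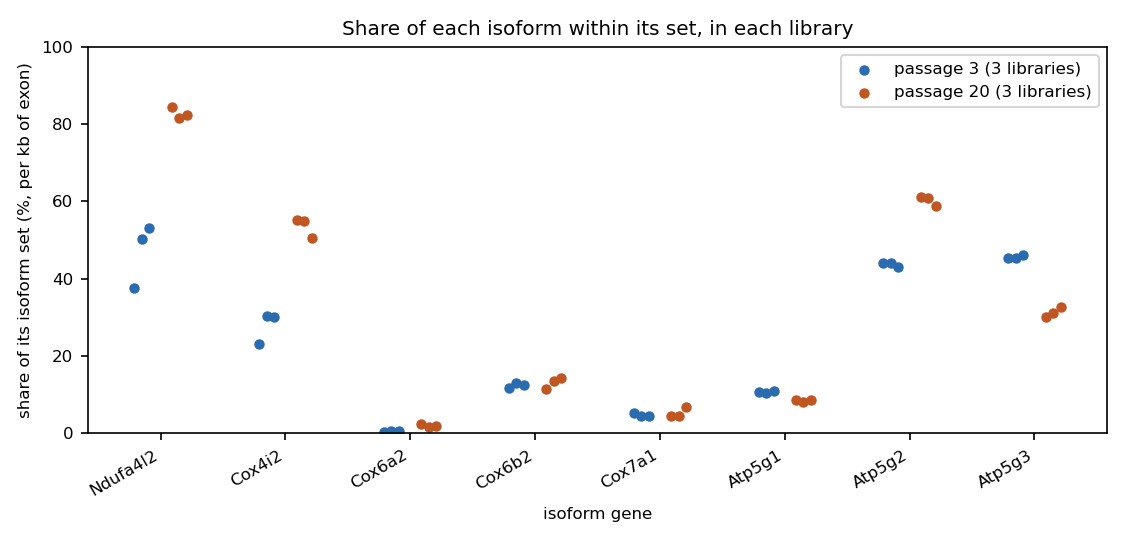
Share of each isoform gene within its set in percent of the set's level per kilobase of exon, 1 point per library. Ndufa4l2, Cox4i2 and Atp5g2 lie higher in all 3 passage 20 libraries, Atp5g3 and Atp5g1 lie lower, and Cox6b2 and Cox7a1 overlap.

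ATP synthase, complex V, had 17 nuclear members, 6 higher, 4 lower and 7 not called, with a median of -0.02 (5 and 11 with library sizes only). The 5 genes of its catalytic head were 4 higher, 0 lower and 1 not called, with a median of 0.48 (4 higher and 1 lower with library sizes only; 0 lower at an unadjusted p under 0.05 and 0 by DESeq2, and 1 lower without passage 20 replicate 3). Atp5b, the catalytic beta subunit and the most abundant nuclear member of complex V per kilobase of exon, stood at 895, 869 and 872 CPM and then at 1224, 1212 and 1237 CPM (log2 0.48 ± 0.04; edgeR adjusted p = 2.63e-06). Atp5a1, the alpha subunit, went from 629, 624 and 642 CPM to 862, 876 and 878 CPM. Atp5c1 and Atp5d, the gamma and delta subunits of the central stalk, had log2 fold changes of 0.64 ± 0.05 and 0.69 ± 0.05. In these 4 genes each late library lay above each early one. Exons of Atp5a1 and Atp5d overlap Haus1 and Cbarp on the opposite strand (922 and 3115 counts in all 6 libraries, against 60970 and 16471 for the subunits), so their counts are uncertain. Atp5e, the epsilon subunit, did not pass (-0.08 ± 0.08).

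Of the 9 subunits outside the catalytic head and the c ring, 1 was higher, 3 were lower and 5 were not called. Among those lower were Atp5l and Atp5k, small membrane subunits known to help pair the enzyme into dimers. Atp5l, subunit g, went from 19.4, 18.7 and 21.3 CPM to 12.6, 12.7 and 14.1 CPM (log2 -0.59 ± 0.10; edgeR adjusted p = 0.000206), and Atp5k, subunit e, from 18.4, 13.3 and 17.6 CPM to 9.60, 10.2 and 12.6 CPM (log2 -0.60 ± 0.15). Neither gene overlapped between passages. In the c ring, Atp5g2 rose from 107, 108 and 107 CPM to 181, 187 and 177 CPM (log2 0.76 ± 0.05; edgeR adjusted p = 1.22e-07), Atp5g3 fell from 144, 144 and 148 CPM to 116, 124 and 128 CPM, and Atp5g1 did not pass (-0.05 ± 0.06). Retrocopies and other annotated genes share 36.7% of the 50-base words of Atp5g2.

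Promoter sequence was available from RefSeq for 66 of the 83 nuclear members (250 bases before to 50 after the start, GRCm38.p6). Motifs were searched on both strands. The core motif of NRF1, a known activator of respiratory genes, is GCATGCGC, and it was found in 16.7% of these members and 3.05% of 27025 genes. The full NRF1 palindrome, which holds the core, was found in 7.58% and 1.07%. The ETS letters CCGGAAGT were found in 7.58% and 4.31%, the YY1 motif in 7.58% and 0.995%, the oestrogen-related receptor letters TCAAGGTCA in 3.03% and 0.466%, and the HIF letters ACGTG in 25.8% and 21.8%. The stretches before the start of Atp5g2 and Cycs are shown because both hold the NRF1 motif, given in capitals (the palindrome in Atp5g2 and the core in Cycs), and the genes were called in opposite directions:
Atp5g2: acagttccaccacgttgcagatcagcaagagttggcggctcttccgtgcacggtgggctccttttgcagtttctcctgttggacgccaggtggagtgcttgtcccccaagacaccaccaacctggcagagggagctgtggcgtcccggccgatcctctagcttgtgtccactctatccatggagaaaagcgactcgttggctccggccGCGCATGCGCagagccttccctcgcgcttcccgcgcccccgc
Cycs: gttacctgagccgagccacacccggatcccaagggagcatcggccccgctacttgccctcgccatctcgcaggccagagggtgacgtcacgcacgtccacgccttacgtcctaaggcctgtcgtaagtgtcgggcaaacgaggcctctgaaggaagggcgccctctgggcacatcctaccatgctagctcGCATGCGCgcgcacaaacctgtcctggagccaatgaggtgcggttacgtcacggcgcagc
The Atp5g2 stretch is chromosome 15, 102671048 to 102671297, and the Cycs stretch is chromosome 6, 50566570 to 50566819, both on the - strand. A match is a description of letters and not a bound site.

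Of 9 genes that the naming rule misses, 6 were higher, 2 lower and 1 not called (3 and 3 with library sizes only, 3 and 2 with GC and length offsets, and 1 lower without passage 3 replicate 2 or 3). The shares over all genes tested were 37% higher and 37.3% lower, and 23.3% and 54.6% with library sizes only. Higd1a, a low-oxygen factor of complex IV, went from 35.3, 36.5 and 43.3 CPM to 186, 178 and 143 CPM (log2 2.13 ± 0.11; edgeR adjusted p = 2e-07), and Cox7a2l, which helps join complexes III and IV, had 0.83 ± 0.06. Cox4i2 went from 17.1, 24.2 and 26.5 CPM to 80.4, 82.5 and 77.4 CPM. Atpif1, the inhibitor that keeps ATP synthase from running backwards, went from 14.7, 13.2 and 13.5 CPM to 6.14, 7.26 and 7.48 CPM (log2 -0.98 ± 0.12). All late libraries were beyond all early ones in these 4 genes.

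The assembly factors of the electron transport complexes were called lower more often than higher. Over all genes tested, 37.3% were lower and 37% higher. For complex I, 8 of 15 were lower and 2 higher, with a median of -0.30 (1 higher without passage 3 replicate 2 or 3 or passage 20 replicate 1 or 2), and for complexes II and III, 7 of 10 were lower and 0 higher (0 at an unadjusted p under 0.05 and 0 by DESeq2), with a median of -0.53. For complex IV, 8 of 17 were lower and 2 higher, with a median of -0.21 (4 higher without passage 20 replicate 3). Ndufaf4, an early assembly factor of complex I, went from 17.7, 17.8 and 16.9 CPM to 7.03, 6.56 and 5.59 CPM (log2 -1.45 ± 0.11; edgeR adjusted p = 6.05e-07). Tmem186, a factor of the membrane arm, fell 2.26-fold, Ttc19 of complex III 1.39-fold and Pet100 of complex IV 2.23-fold. The lowest log2 fold change in the list for complexes II and III was -1.99. Surf1, an early factor of complex IV, rose 1.31-fold but was not called with library sizes only (log2 0.0602). Of 3 ATP synthase assembly factors, Atpaf2 and Tmem70 were higher (0.71 ± 0.10 and 0.33 ± 0.06, the latter 0.0022 and not called with library sizes only) and Atpaf1 lower (-0.97 ± 0.09).

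Genes that read, process and copy mitochondrial DNA were split, with 6 higher, 8 lower and 9 not called for transcription and RNA processing (median -0.08) and 5, 3 and 4 for replication (median 0.03, and -0.30 with library sizes only). Tfam, the packaging and start factor, stood at 43.3, 43.9 and 45.8 CPM and then at 44.3, 44.1 and 45.8 CPM, with overlapping passages. Rexo2, which degrades short RNAs in mitochondria, fell 2.47-fold and Elac2, which trims the ends of transfer RNAs, 1.61-fold. The lowest log2 fold change among the transcription and RNA processing genes was -2.15. Grsf1 and Fastk, RNA-binding proteins of mitochondria, rose 1.62-fold and 1.72-fold. Among replication genes, Primpol, a primase and polymerase, and Mgme1, a nuclease, rose 2.21-fold and 1.66-fold, while the helicase gene Twnk and the ligase gene Lig3 fell 1.76-fold and 1.55-fold. Of 12 regulators of mitochondrial biogenesis, 9 were higher and 2 lower, with a median of 0.31 (2 higher and a median of -0.018 with library sizes only, and 1 lower without passage 3 replicate 1 or 2 or passage 20 replicate 1). Beside these 3 lists, 37% of all genes tested were higher and 37.3% lower, and with library sizes only 23.3% and 54.6%. The coactivator gene Ppargc1b went from 3.04, 3.45 and 4.15 CPM to 8.32, 8.15 and 7.65 CPM (log2 1.17 ± 0.15), and the deacetylase gene Sirt1 from 33.5, 32.9 and 30.1 CPM to 8.61, 9.55 and 12.4 CPM (log2 -1.64 ± 0.12).

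**Figure D4:**
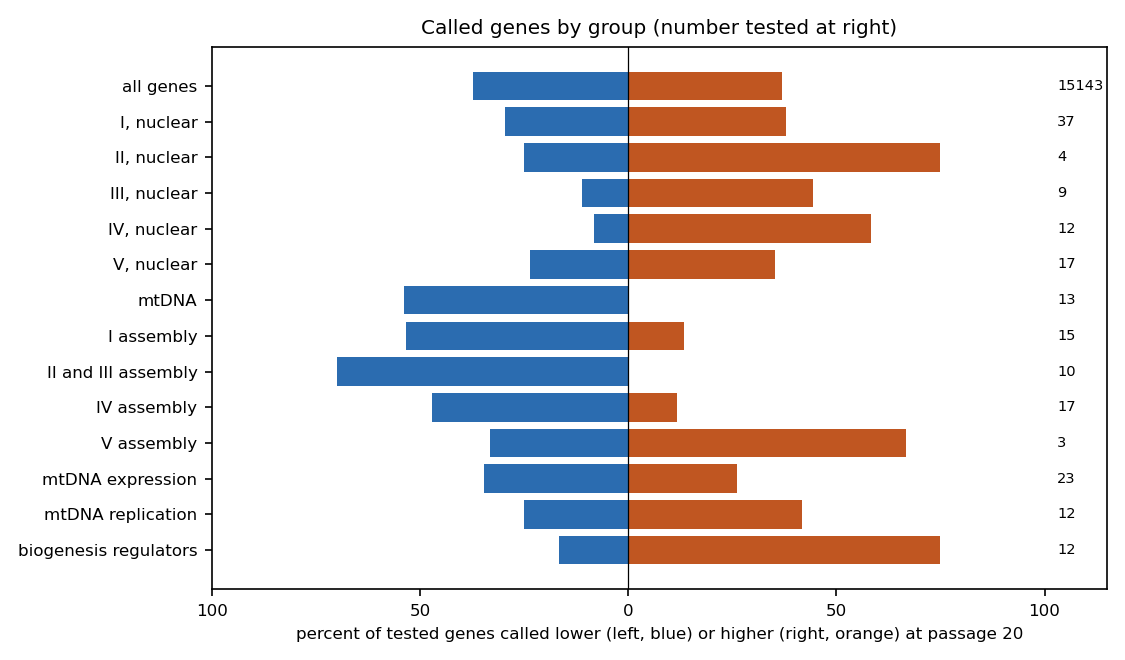
Percent of tested genes called lower (left) or higher (right) at passage 20 in each group, with the number tested at the right. The first bar gives all genes, at 37.3% lower and 37% higher. The balance is with TMM factors: with library sizes only each of the nuclear complexes I to V had more genes lower than higher.

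Pathways that feed the chain or use its product also held genes in both directions. For each list here, the shares over all genes tested were 37% higher and 37.3% lower, and 23.3% and 54.6% with library sizes only. Of 17 genes of pyruvate dehydrogenase and the citric acid cycle, 9 were higher and 6 lower (4 and 11 with library sizes only). Cs, citrate synthase, rose 1.54-fold and Pdha1, the entry enzyme's alpha subunit, 1.53-fold, while Dlst and Ogdh, both of the oxoglutarate dehydrogenase complex, fell 1.66-fold and 1.36-fold. Of 13 ubiquinone synthesis genes, 3 were higher, 2 lower and 8 not called (5 lower without passage 20 replicate 3), with Coq10b, a ubiquinone-binding protein, lower by 3.91-fold. Of 6 other genes that feed ubiquinone, 2 were higher, Dhodh (not called with library sizes only, log2 0.0008) and Sqor, and 0 lower (0 at an unadjusted p under 0.05 and 0 by DESeq2). All 6 tested carriers and channels for adenine nucleotides, phosphate and metabolites were higher, with 0 lower (0 at an unadjusted p under 0.05 and 0 by DESeq2), and 4 were higher with library sizes only. Vdac1, the main outer membrane channel, stood at 301, 319 and 315 CPM and then at 946, 871 and 827 CPM, a 2.83-fold rise (edgeR adjusted p = 3.01e-09). Of 6 partners linked to oxygen supply, 5 were higher, against 37% of all genes tested. Cox4i2 and Higd1a are in this list and also among the genes that the naming rule misses, so they are counted in both. Among the 6 partners, the protease gene Lonp1 rose 4.78-fold, and Iscu, the scaffold on which iron-sulphur clusters are built, fell 2.27-fold.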

How the data were processed

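RNA libraries from 6 ciCPC samples were used. Per the labels' protocols, RNA was isolated with a column kit and treated with DNase. Alignment and counting tools, per the submitters' processing notes, include HISAT2 (2.0.5) and HTSeq, with SAMtools and DESeq2 also listed and GRCm38 as the build, the annotation and strand option being not given in the sources used here. Deposited by the authors were counts in whole numbers for each gene, and values on a log2 scale whose transformation is not stated and which served only as an alternative. Names and positions came from GENCODE M21 (53706 of 53801 identifiers matched; the other 95 took 0.00623% of counts).

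Counts were filtered with filterByExpr (15143 genes left), scaled with TMM factors (0.873 to 1.13) and tested by robust quasi-likelihood (edgeR 4.0.16, R 4.3.3), passage 20 against passage 3, with Benjamini-Hochberg adjustment at 0.05. The common coefficient of biological variation came to 7.05%. Levels per kilobase used the union of exons. The alternatives were DESeq2 1.42.0, RLE factors, upper-quartile factors, limma-voom (limma 3.58.1), unscaled library sizes ("library sizes only"), limma on the deposited log2 values, 2 other low-count filters, each library left out, a replicate block, GC and length offsets, and both together.

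Members and gene lists were chosen with earlier results of these data known. The text names the mitochondrial genes, the isoform sets, complex II, Cycs and Cyc1, up to 3 genes per direction and complex and the most abundant, members not called where 5 or fewer, members below the filter, and up to 2 genes per direction of each list; Atp5a1, Atp5e, Tfam, mt-Rnr1, mt-Rnr2, mt-Tp and the nuclear copies were chosen after their values were seen.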

Additional observations from a re-analysis of the deposited data

How the results depend on the processing

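The genes picked to be named, leaving out those chosen after their values were seen, include list genes. They are not the same set as the 96 respiratory genes found by symbol, of which 93 were tested. Of the picked genes, 96 passed the filter. Each of these kept its direction and side of the threshold with RLE factors and with limma-voom. With library sizes only, which lowered the median of all genes to -0.34, the nuclear genes called were 11 higher and 49 lower, and the medians were -1.63 for mitochondrial complex I, -0.23 for mitochondrial complex IV, -0.46 for mitochondrial complex V, and -0.36, -0.18, -0.20, -0.12 and -0.35 for nuclear complexes I to V. Log2 fold changes there turned to -0.064 for Acad9, -0.0702 for Cox4i1, -0.0145 for Cox6a1, -0.20 for Cox6b1, -0.10 for Cox6b2, -0.0897 for Cox7a2, -0.32 for Cox7b, -0.25 for Cyc1, -0.19 for Sdha, -0.16 for Sdhc, -0.28 for Uqcr10, -0.29 for Uqcrb, -0.20 for Uqcrc1, -0.10 for Uqcrh, -0.32 for mt-Atp6 and -0.21 for mt-Co1. This shift of all genes comes from leaving out the factors.

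With GC and length offsets, 22 nuclear genes were higher and 29 lower, and the medians were -0.19 for mitochondrial complex IV, -0.44 for mitochondrial complex V, and -0.12, 0.23, -0.045 and 0.0168 for nuclear complexes I, II, IV and V. Log2 fold changes turned to -0.068 for Cox6a1, -0.25 for Cox6b1, -0.0553 for Cox6b2, -0.068 for Cox7a2, -0.39 for Uqcr10 and -0.22 for Uqcrb. The cause was not tested.

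The replicate numbers are shared between passages, but same-numbered libraries did not deviate together (correlations 0.014, -0.027 and 0.045). With the replicate block, 32 nuclear genes were higher and 19 lower, and 0 mitochondrial genes higher and 7 lower. With the replicate block and the offsets together, 22 nuclear genes were higher, the medians were -0.19 and -0.42 for mitochondrial complexes IV and V and -0.12, 0.23, -0.0463 and 0.0181 for nuclear complexes I, II, IV and V, and log2 fold changes were -0.0689 for Cox6a1, -0.25 for Cox6b1, -0.0578 for Cox6b2, -0.069 for Cox7a2, -0.39 for Uqcr10 and -0.21 for Uqcrb.

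Upper-quartile factors gave medians of -0.11, 0.0773, 0.0506, 0.13 and -0.0952 for nuclear complexes I to V. The median of mitochondrial complex I was -1.10 with limma on the deposited values, and that of mitochondrial complex V was 0.0116 with at least 1 CPM in 3 libraries. Counts in place of counts per kilobase gave differences of 20.6 points for Cox4i2, -3.71 for Atp5g1, 15.44 for Atp5g2 and -11.7 for Atp5g3.

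With each library left out, 27 to 33 nuclear genes were higher and 15 to 23 lower, and 0 to 1 mitochondrial genes were higher (1 without passage 20 replicate 3) and 7 lower. Medians ranged from -1.46 to -1.21, -0.0116 to 0.15 and -0.21 to -0.0407 for mitochondrial complexes I, IV and V, and from -0.06 to 0.02, 0.12 to 0.17, 0.09 to 0.17, 0.15 to 0.21 and -0.03 to 0.00 for nuclear complexes I to V. The difference in the share of counts from mitochondrial DNA protein genes, -0.431 points, ranged from -0.467 to -0.405. Of the respiratory genes tested, mt-Nd3, mt-Nd4l, mt-Atp8, Cox6a2 and Cox7a1 had the fewest counts, at most 35 per library.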
